A study of Mus musculus with 6 samples.

Results

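Iron handling was examined in mouse bone marrow derived macrophages through 10 genes: the ferritin chains Fth1 and Ftl1, the ferritin cargo receptor Ncoa4, the importers Tfrc, Slc11a1, Slc11a2 and Slc48a1, the exporter Slc40a1, and the iron regulatory proteins Aco1 and Ireb2. The members were taken by gene name from the deposited table, and all 10 were found among its 54232 rows. The tested cells were SIRPa KO macrophages (3 libraries), which lack the inhibitory CD47 receptor of myeloid cells, and they were set against WT macrophages (3 libraries). All mice were C57BL/6 and 8 weeks old by the labels, and all cultures were untreated marrow cells after 7 days with colony-stimulating factor 1, supplied as 30% L929 cell-conditioned medium. How the Sirpa gene was disrupted is not stated, and neither is it stated that each replicate was its own mouse or culture, so the p-values reflect library-to-library spread that could be technical.

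Macrophages take iron from ingested red cells, from transferrin and from the phagosome. They store it in ferritin, a shell built of heavy and light chains, and release it through ferroportin, the product of Slc40a1. When iron is scarce, the iron regulatory proteins bind stem-loops called iron-responsive elements. Binding in a 5′ untranslated region (UTR) blocks translation, as for ferritin, and binding in the 3′ UTR of Tfrc protects that mRNA from decay. Ferritin and ferroportin can therefore be controlled at the level of protein, which RNA-seq does not measure.

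Canonical iron-responsive element cores were looked for in the UTRs of the members, because they are the best known binding sites of iron regulatory proteins. Other sites exist that these letters miss, and Slc11a2 is known to have an isoform with a non-canonical element in its 3′ UTR. The letters searched were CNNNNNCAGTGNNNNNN on the transcript strand, with 5 paired stem bases on each side of the CAGTGN loop. Such a core was present in 4 of the 10 members. Over 21901 protein-coding genes, 0.142% had one in a 5′ UTR and 0.589% in a 3′ UTR. The sequences below are from GENCODE M21 transcripts on GRCm38, and capitals mark the loop.
Fth1 5′ UTR, chr19:9982732-9982760, plus strand: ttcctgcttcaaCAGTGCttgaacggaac
Ftl1 5′ UTR, chr7:45459779-45459807, minus strand: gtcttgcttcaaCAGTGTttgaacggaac
Slc40a1 5′ UTR, chr1:45925465-45925493, minus strand: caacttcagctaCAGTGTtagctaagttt
Tfrc 3′ UTR site 1, chr16:32631219-32631247, plus strand: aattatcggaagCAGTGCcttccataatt
Tfrc 3′ UTR site 2, chr16:32631598-32631626, plus strand: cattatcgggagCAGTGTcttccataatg
Tfrc 3′ UTR site 3, chr16:32631663-32631691, plus strand: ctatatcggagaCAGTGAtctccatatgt
Tfrc 3′ UTR site 4, chr16:32631710-32631738, plus strand: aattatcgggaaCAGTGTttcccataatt
Tfrc held 4 cores in a row and the other carriers 1 each. Not every annotated isoform carries its core: it lay in 4 of 5 coding transcripts of Fth1, 1 of 2 of Ftl1, 1 of 4 of Slc40a1 and 1 of 3 of Tfrc. No core of these letters was found in the annotated UTRs of Slc11a1, Slc11a2, Slc48a1, Ncoa4, Aco1 or Ireb2.

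None of the 10 iron genes passed the test between the genotypes. All 10 passed the filter on low values, and of these 0 rose, 0 fell and 10 did not pass (limma, Benjamini-Hochberg over 13527 genes, adjusted p = 0.9998 for each), while over all genes tested 0.0% were called higher and 0.00739%, which is Sirpa alone, lower. In the means, 4 members stood above WT and 6 below, with log2 fold changes of -0.15 to 0.16 and a median of -0.01. Over all genes tested 7012 of 13527 stood below WT and the median was also -0.01. No member had an unadjusted p under 0.05 (1.52% of all genes did), and the genotypes overlapped for every member (4.66% of all genes had groups that did not overlap). For 9 members the 95% interval stayed inside 1.5-fold either way (all but Ftl1), as for 69.1% of all genes tested. It stayed inside 2-fold for all 10 members and for 87.7% of all genes. Inside 1.2-fold it stayed for 0 members and for 4.86% of all genes. The targeted gene matched the labels, as Sirpa fell by 5.68 on the log2 scale (limma adjusted p = 6.45e-10). On reads recovered from the table, edgeR (0.00739% of all genes called) and DESeq2 (0.00406%) called 0 members, 0 of which had an unadjusted p under 0.05 with either. Weighting the libraries by their estimated quality called 3 members higher (Tfrc, Slc40a1 and Ireb2) in a limma fit that called 25.9% of all genes.

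**Figure D1:**
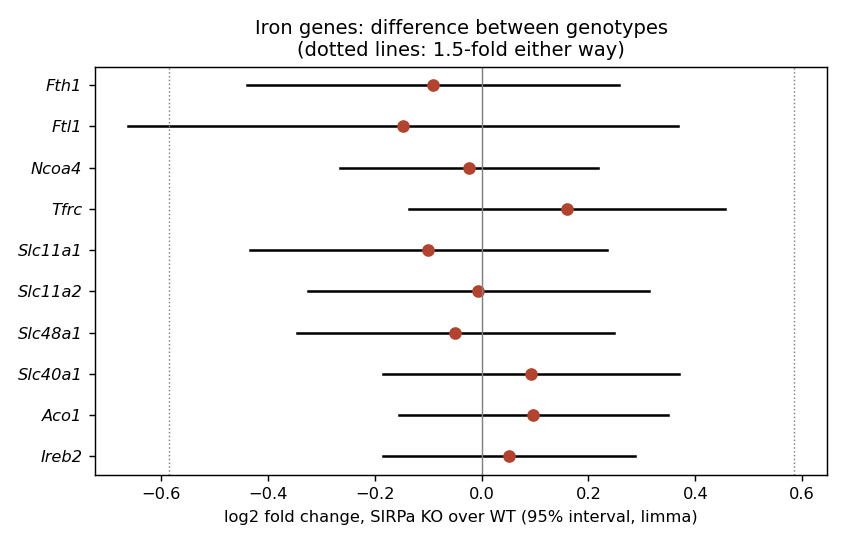
Log2 fold change of each iron gene, SIRPa KO over WT, with its 95% interval from limma; dotted lines mark 1.5-fold either way. Every interval spans 0, and the Ftl1 interval, from -0.66 to 0.37, alone reaches past a dotted line.

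The libraries held 28653015 to 31401080 assigned reads in KO and 34102444 to 67446846 in WT. The least abundant member, Slc40a1, had 421 to 478 reads in KO and 414 to 975 in WT, for which the expected counting error alone reached 4.87% of the value in KO and 4.92% in WT, beside a coefficient of variation between libraries of 3.03% in KO and 8.44% in WT. For the other members it was at most 3.24%. The labelled cell type was checked with markers. The 10 macrophage markers were all tested and summed to 942557 to 1093758 normalized counts in KO and 1069484 to 1251836 in WT. Lyz2 made up most of these sums, with a mean of 753007 over all 6 libraries. By log2 fold change 6 of the 10 stood above WT and 4 below, with a median of 0.006. Of 9 erythroid markers, which matter here because developing red cells are rich in Tfrc, 5 were at 0 in all 6 libraries and the rest averaged below 10, with sums of 3.62 to 11.5 in KO and 2.91 to 9.63 in WT. The 6 fibroblast markers likewise averaged below 10. Of the markers tested for monocytes (5), neutrophils (5), dendritic cells (3), B cells (2) and T and NK cells (2), 0 passed between the genotypes (0.00739% of all genes did). That test does not bear on which cells were present. The highest means of these lists were 8864 for Ccr2, 157 for S100a8, 86.7 for Siglech, 5828 for Ighm and 160 for Cd4. Unadjusted p was under 0.05 (limma) for 2 macrophage, 1 monocyte and 1 B cell marker, and for 1.52% of all genes. Levels of a bulk sample cannot tell fewer cells of a type apart from less RNA per cell.

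Levels per kilobase of merged exon placed the ferritin chains far above every other iron gene, and ferroportin last. In normalized counts per kilobase, Fth1 had 152091 ± 10404 in KO and 161966 ± 10372 in WT (SD, n = 3 each), and Slc40a1 58.9 ± 1.79 in KO and 55.4 ± 4.67 in WT, a ratio of 2749 between the genes over all 6 libraries. Ftl1 came second and was 32.0-fold above Slc48a1, the next gene. The order went on with Slc11a1, Tfrc, Aco1, Ireb2, Ncoa4 and Slc11a2. Most neighbours kept their order in all 6 libraries, with the exceptions of Tfrc over Aco1 and Ncoa4 over Slc11a2, which held in 5 of 6 each. Besides those pairs, the ranges over the 6 libraries also overlapped for Slc48a1 and Slc11a1. Merged exon length counts every annotated exon, so genes with long rare isoforms are placed too low.

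Storage came first in abundance. Fth1 encodes the ferritin heavy chain, which oxidises iron as it enters the shell (ENSMUSG00000024661, GRCm38 chromosome 19, 9980598 to 9985098, plus strand). Its normalized count was 531193, 561767 and 489851 in KO libraries 1, 2 and 3, and 588868, 521013 and 575698 in WT libraries 1, 2 and 3. The ranges overlapped, and Fth1 ranked 2 or 3 among all transcripts of each library. The mean was 527603 ± 36092 in KO and 561860 ± 35982 in WT (SD, n = 3 each), a log2 fold change of -0.09 (SE 0.16, limma adjusted p = 0.9998).

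Ftl1 encodes the light chain, which helps the shell hold its iron core (ENSMUSG00000050708, chromosome 7, 45457944 to 45459884, minus strand). It had 151572, 172142 and 84393 normalized counts in KO and 146381, 153675 and 132749 in WT. KO replicate 3 was thus low, at 58.5% of the WT mean, while KO replicate 2 was the highest library. The means were 136036 ± 45892 in KO and 144268 ± 10622 in WT (SD, n = 3 each), and the log2 fold change was -0.15 (SE 0.23, limma adjusted p = 0.9998). Without KO replicate 3 it was 0.17, so that this direction rested on that single library. Leaving out KO replicate 2 gave -0.35. Among 585 genes with a mean of at least 10000, 6 including Ftl1 were as far below their own mean in KO replicate 3 (log2 deviation -0.70 for Ftl1). Fth1 and Ftl1 together made up 1.91%, 2.04% and 1.61% of all normalized counts in KO and 1.99%, 1.86% and 1.96% in WT.

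The ferritin light chain has near-identical copies in the mouse genome, among which reads can be split. Of 14 other rows named Fth or Ftl, 9 were at 0 in all 6 libraries, and Ftl1-ps1 was the one with a mean of at least 100. Its longest transcript matched Ftl1 at 99.6% of 910 aligned positions. Ftl1-ps1 had 808, 404 and 2225 normalized counts in KO and 919, 411 and 552 in WT. KO replicate 3, lowest for Ftl1, was therefore the highest for this copy. The rows Ftl1-ps1, Ftl1-ps2 and Ftl2-ps held 0.604%, 0.279% and 2.62% of the light chain signal in KO and 0.668%, 0.321% and 0.463% in WT. Adding them to Ftl1 left KO replicate 3 low, with 86666 against 152493 and 172624 in the other KO libraries and 133367 to 154170 in WT. Reads counted in none of these rows are absent from the sum, so it cannot show whether ambiguous reads were lost. Ftl1 also overlaps exons of the antisense gene Gm10252 (mean 290 normalized counts), from which its reads cannot be told apart unless the counting used strand.

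**Figure D2:**
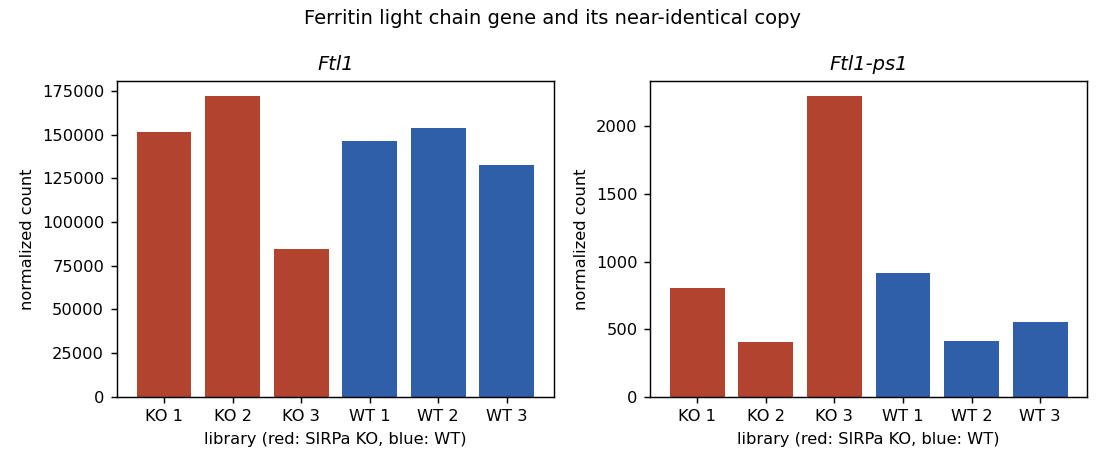
Normalized counts of Ftl1 (left) and of its near-identical copy Ftl1-ps1 (right) in each library, SIRPa KO in red and WT in blue; the vertical axes differ in scale. KO replicate 3 holds the lowest Ftl1 value (84393) and the highest Ftl1-ps1 value (2225).

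Ncoa4 hands ferritin to the autophagosome so that its iron can be released (ENSMUSG00000056234, chromosome 14, 32159865 to 32179855, plus strand). Its normalized count was 2096, 1983 and 2344 in KO and 2055, 2291 and 2172 in WT. KO replicates 2 and 3 were the lowest and the highest library, so that the WT values lay within the KO range. The log2 fold change was -0.02 (SE 0.11), and the means were 2141 ± 185 in KO and 2173 ± 118 in WT.

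Uptake genes were next. Tfrc, the receptor for iron-loaded transferrin, had the log2 fold change farthest from 0 of the 10 members (ENSMUSG00000022797, chromosome 16, 32608920 to 32632794, plus strand). It had 4415, 3788 and 3229 normalized counts in KO and 3559, 3620 and 3010 in WT. KO replicates 1 and 2 were above all WT libraries, and KO replicate 3 was below 2 of them. The means were 3811 ± 593 in KO and 3396 ± 336 in WT (SD, n = 3 each), a log2 fold change of 0.16 (SE 0.13, 95% interval -0.14 to 0.46, unadjusted p = 0.26, limma adjusted p = 0.9998). Leaving out KO replicate 1 gave 0.05, WT replicate 3 gave 0.07 and KO replicate 3 gave 0.27. Dividing cells need iron, and all 22 cell cycle genes listed for comparison were tested, with sums of 87338, 78059 and 79374 in KO and 70475, 69069 and 92731 in WT; 11 stood above WT and 11 below, 0 passed, and their part in the Tfrc values was not tested.

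Slc11a1, a pump that moves divalent metals out of the phagosome of macrophages, is also the gene through which mouse strains differ in resistance to some intracellular microbes, and C57BL/6 mice are known to carry its loss-of-function allele. It lies on chromosome 1 from 74375195 to 74386062 on the plus strand (ENSMUSG00000026177). Its normalized count was 9567, 9893 and 6993 in KO and 9325, 10636 and 8210 in WT. Replicate 3 was the lowest of each genotype. The log2 fold change was -0.10 (SE 0.15), with means of 8818 ± 1588 in KO and 9390 ± 1214 in WT, and it was 0.06 without KO replicate 3. Slc11a1 is known to respond to interferon, and 20 of 20 interferon-stimulated genes listed for comparison stood below WT in the mean log2 value, as did 7012 of 13527 over all genes tested. Their median log2 fold change was -0.44, 7 of 20 had an unadjusted p under 0.05, where 1.52% of all genes did, and 0 passed the adjusted test. The groups did not overlap for 1 of 20, as for 4.66% of all genes. The difference was uneven across libraries. Their median log2 deviation was -0.73, 0.07 and -0.02 in KO libraries 1, 2 and 3, and 0.01, 0.22 and 0.40 in the WT libraries. They summed to 32069, 51726 and 51215 normalized counts in KO and 50961, 57113 and 62492 in WT. Their part in the Slc11a1 values was not tested.

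Slc11a2 is the widely expressed relative of Slc11a1, which carries iron out of endosomes after transferrin uptake (ENSMUSG00000023030, chromosome 15, 100387898 to 100425072, minus strand). It had 1390, 1505 and 1147 normalized counts in KO and 1363, 1544 and 1155 in WT. The genotypes had nearly the same mean, 1347 ± 183 in KO and 1354 ± 195 in WT, and the log2 fold change was -0.01 (SE 0.14). Its sign turned with small changes of the processing, and it was 0.11 without KO replicate 3.

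Slc48a1 lets heme from digested red cells leave the phagolysosome (ENSMUSG00000081534, chromosome 15, 97778520 to 97792692, plus strand). Its normalized count was 9907, 9724 and 7083 in KO, against 9146, 9149 and 9029 in WT. The WT libraries had a coefficient of variation of 0.756%, and the KO libraries lay on both sides of them, replicate 3 below and the others above. The means were 8905 ± 1580 in KO and 9108 ± 68.9 in WT, the log2 fold change was -0.05 (SE 0.13), and without KO replicate 3 it was 0.11. Its exons overlap those of Hdac7, an antisense gene with a mean of 488 normalized counts, and whether the counting used strand is not stated. Hmox1, the enzyme that opens the heme ring, was named after its values were seen: 13300, 13399 and 8039 normalized counts in KO and 13237, 11760 and 11338 in WT, again lowest in KO replicate 3.

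Slc40a1, the only known cellular iron exporter, was the lowest member (ENSMUSG00000025993, chromosome 1, 45908068 to 45926523, minus strand). It had 527, 547 and 516 normalized counts in KO and 450, 523 and 522 in WT. The KO libraries lay within the WT range except for replicates 1 and 2, which were just above it, and WT replicate 1 was the lowest of the 6. The means were 530 ± 16.1 in KO and 498 ± 42.1 in WT, with a log2 fold change of 0.09 (SE 0.13), which was 0.02 without WT replicate 1.

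Both iron regulatory proteins had means slightly above WT. Aco1, a cytosolic aconitase that binds iron-responsive elements once it has lost its iron-sulfur cluster, had 2702, 2395 and 2559 normalized counts in KO and 2490, 2576 and 2113 in WT (ENSMUSG00000028405, chromosome 4, 40143081 to 40198338, plus strand). WT replicate 3 was the lowest library, and without it the log2 fold change was 0.01, against 0.10 (SE 0.11) with all libraries. Ireb2, which is degraded when iron is plentiful, had 3103, 2691 and 3127 normalized counts in KO and 2748, 3022 and 2829 in WT (ENSMUSG00000032293, chromosome 9, 54863789 to 54912530, plus strand). The genotypes overlapped here too, with a log2 fold change of 0.05 (SE 0.11).

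**Figure D3:**
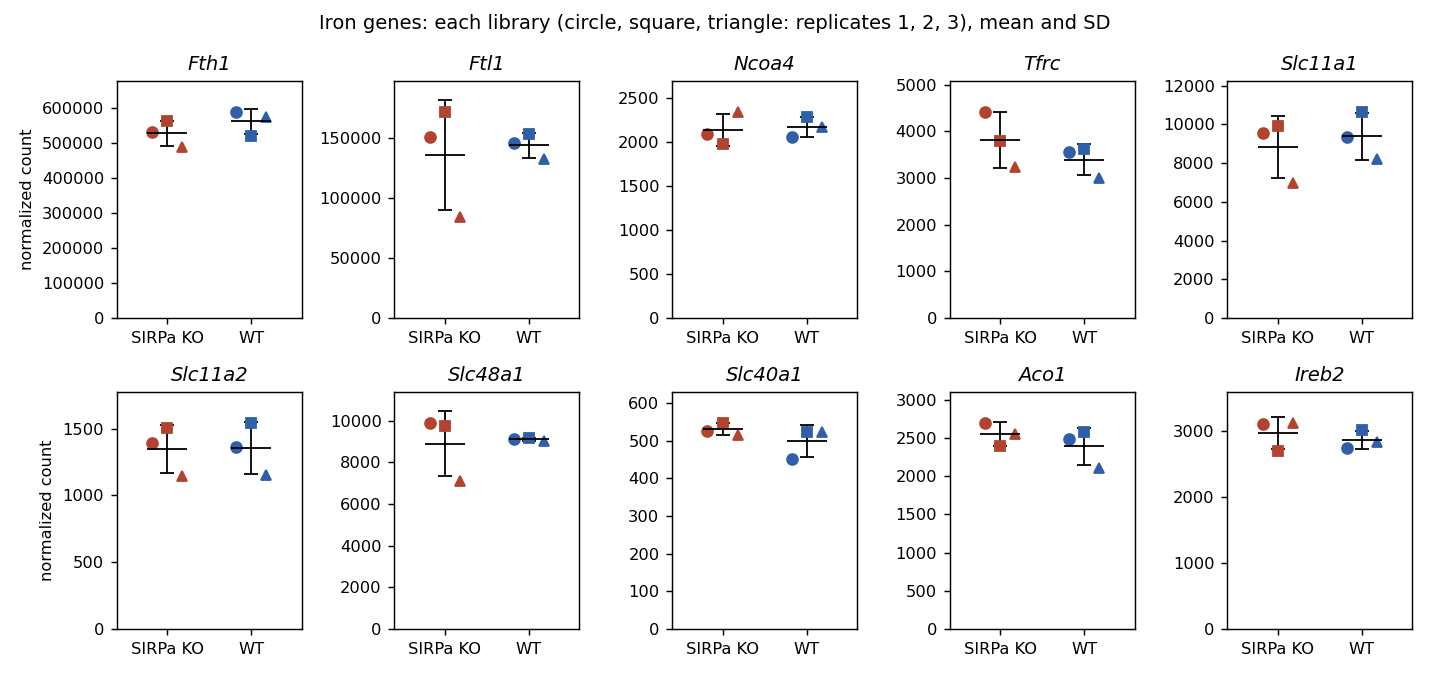
Normalized counts of the 10 iron genes in each library, SIRPa KO left and WT right in every panel, with the mean and SD of 3 libraries (black) and axes that start at 0. The genotypes overlap in every panel, and the lowest Ftl1, Slc11a1 and Slc48a1 values (84393, 6993 and 7083) are those of KO replicate 3.

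The members did not vary alike across the libraries. KO replicate 3 was the lowest library for 5 of 10 members (Fth1, Ftl1, Slc11a1, Slc11a2 and Slc48a1) and the highest for Ireb2 and Ncoa4. WT replicate 3 was the lowest for Tfrc and Aco1. The median log2 deviation of the 10 members from their means was 0.09, 0.09 and -0.15 in KO libraries 1, 2 and 3 and 0.02, 0.06 and -0.04 in WT libraries 1, 2 and 3. Over the 6 libraries the highest value was 2.04 times the lowest for Ftl1, 1.52 times for Slc11a1 and 1.47 times for Tfrc, and less for the others. In the same library, KO replicate 3, the summed level of the 15 NRF2 targets, antioxidant genes of the factor that also drives ferritin and ferroportin transcription, was 114642, against 134586 and 137741 in the other KO libraries and 130661 to 141415 in WT. Low values in KO replicate 3 were not particular to these targets. Its median log2 deviation was -0.16 for the NRF2 targets, -0.17 for the macrophage markers and -0.14 to -0.07 for the 4 iron-related lists described below. For the cell cycle genes it was -0.004 and for the interferon-stimulated genes -0.02. WT replicate 3 was about as low for the macrophage markers, at -0.16. The part of the NRF2 target difference in the iron gene values was not tested.

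**Figure D4:**
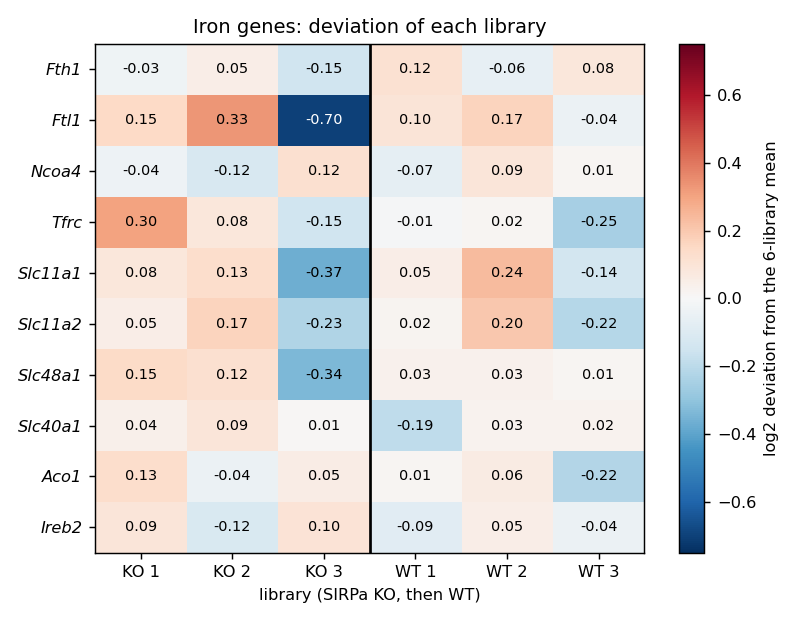
Deviation of each iron gene from its own 6-library mean on the log2(value + 1) scale, with SIRPa KO libraries left of the black line and WT libraries right of it. KO replicate 3 is lowest for 5 members, down to -0.70 for Ftl1, and highest for Ncoa4 (0.12) and Ireb2 (0.10).

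Ratios within a library do not depend on the size factors, and 4 were compared by an exact two-sided permutation test over 20 assignments, whose smallest possible p is 0.1, so that no ratio could pass 0.05. The normalized count of Fth1 was 3.51, 3.26 and 5.80 times that of Ftl1 in KO and 4.02, 3.39 and 4.34 times in WT. The value of 5.80 was that of KO replicate 3, and the log2 ratio differed by 0.06 between the genotypes (exact p = 0.9, adjusted over the 4 ratios 0.9). Slc40a1 was 0.119, 0.145 and 0.160 times Tfrc in KO and 0.126, 0.145 and 0.173 times in WT, that is export against uptake, with a log2 difference of -0.07 (exact p = 0.7, adjusted 0.9). Aco1 was 0.871, 0.890 and 0.818 times Ireb2 in KO and 0.906, 0.852 and 0.747 times in WT (log2 difference 0.05, exact p = 0.7, adjusted 0.9). Slc11a1 was 6.88, 6.57 and 6.10 times Slc11a2 in KO and 6.84, 6.89 and 7.11 times in WT (log2 difference -0.09, exact p = 0.2, adjusted 0.8). Both of these metal pumps were lowest in replicate 3 of each genotype.

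**Figure D5:**
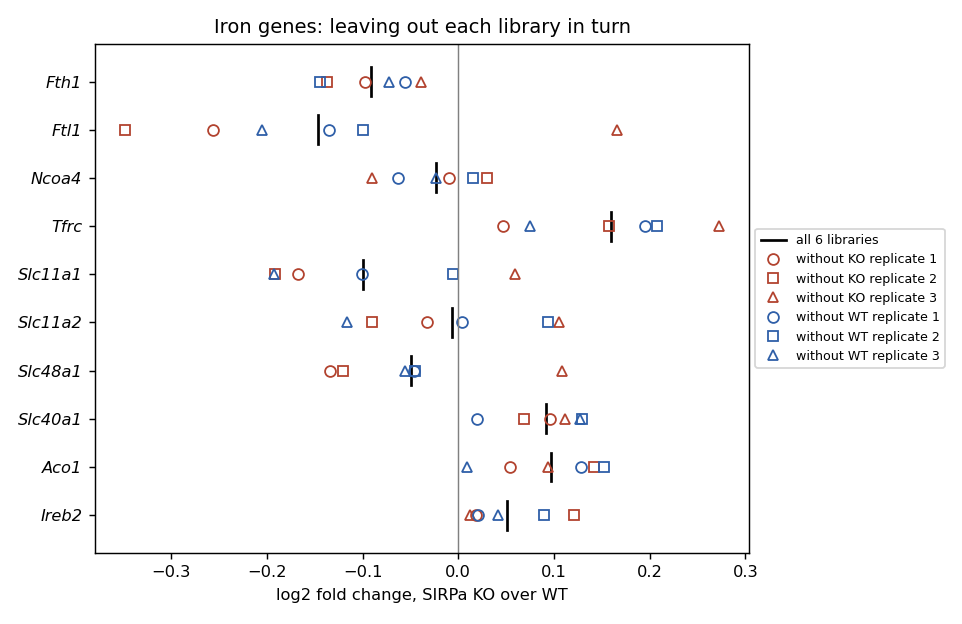
Log2 fold change of each iron gene, SIRPa KO over WT, with all 6 libraries (black bar) and with each library left out (open symbols, red for KO and blue for WT; circle, square and triangle for replicates 1, 2 and 3). Leaving out KO replicate 3 moves Ftl1, Slc11a1, Slc11a2 and Slc48a1 from below 0 to above it, Ftl1 to 0.17.

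Other genes of iron metabolism had no member past the test either. Of 18 rows for heme synthesis, transport and breakdown 17 were tested, of 16 for other importers, reductases and the hepcidin axis 7, of 18 for cytosolic chaperones and iron-sulfur assembly 17, and of 22 for mitochondrial iron and iron-sulfur assembly 20. Of these 61 genes 0 rose and 0 fell, against 0.00739% of all genes called. In the means 44 of the 61 stood below WT (12 of 17, 4 of 7, 14 of 17 and 14 of 20 by list), with a median log2 fold change of -0.06, beside 7012 of 13527 and -0.01 over all genes tested. The list medians were -0.07, -0.06, -0.03 and -0.07 in that order. Without KO replicate 3 they were 0.00, -0.02, 0.02 and -0.05, and the genes below WT numbered 8 of 17, 4 of 7, 7 of 17 and 13 of 20.

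Herc2, a ubiquitin ligase for Ncoa4 and for the iron sensor Fbxl5, was the one gene of the 61 with an unadjusted p under 0.05, 1.52% of all genes being so. It had 5172, 5349 and 5611 normalized counts in KO and 4263, 5204 and 3742 in WT, a log2 fold change of 0.30 (SE 0.13, unadjusted p = 0.0388, limma adjusted p = 0.9998). KO replicate 1 lay below WT replicate 2, so that the genotypes overlapped. Slc39a8, a zinc and iron importer, was the one gene of the 61 whose genotypes did not overlap (4.66% of all genes), with 933, 832 and 932 normalized counts in KO and 807, 749 and 806 in WT; its log2 fold change was 0.19 (limma adjusted p = 0.9998). Its relative Slc39a14 had 2147, 1893 and 1651 in KO and 1651, 1835 and 1359 in WT. Fbxl5, which marks Ireb2 for degradation when iron is plentiful, had a mean of 1340 ± 58.6 in KO and 1448 ± 55.4 in WT, a log2 difference of -0.11. Lrp1, the receptor for the heme carrier hemopexin, was 104560 ± 25902 in KO and 90291 ± 29431 in WT, with a log2 fold change of 0.23 that ran from 0.02 to 0.48 as single libraries were left out. Alad, of heme synthesis, was 339 ± 41.2 in KO and 305 ± 19.9 in WT. Nfu1 and Hscb, both of mitochondrial iron-sulfur assembly, had log2 fold changes of -0.15 and -0.18. Without WT replicate 3 these were -0.07 and -0.02, and without WT replicate 2 they were -0.28 and -0.29. The hepcidin gene Hamp, which encodes the hormone that removes ferroportin from the membrane, was at 0 in all 6 libraries; it too was named after its values were seen.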

How the data were processed

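Poly(A) RNA libraries of 3 SIRPa KO and 3 WT macrophage cultures were grouped by their titles. Per the submitters' processing notes the tools were DESeq2 1.22.2, featureCounts 1.6.0, STAR 2.5.1b and CASAVA 1.4, with the build GRCm38; the design text in the labels names TopHat in place of STAR. No source used here states the strand setting or the annotation release. The deposited columns hold a signal, which the authors made by dividing reads per gene by a size factor for each library; 100% of positive values were whole multiples of 1 step within 0.001 reads. The deposited table also holds the authors' log2 fold change, its standard error and Wald statistic (a score), and p-values, not used here beyond checks: a DESeq2 refit gave their fold changes within 6.36e-05.

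The main test was limma 3.58.1 (R 4.3.3) with an intensity trend on log2(value + 1), a scale on which low genes change less, over 13527 genes with at least 10 in at least 3 libraries. P-values were two-sided, with Benjamini-Hochberg adjustment and a threshold of 0.05. edgeR 4.0.16 and DESeq2 1.42.0 on the recovered reads were alternatives and called 1 gene each, Sirpa. Other alternatives were the pseudocount, the filter, rescaling, no trend, array weights, a replicate block and leaving out each library. Scripts were tested on simulated data. Coordinates and exon lengths came from GENCODE M21 (54079 of 54232 IDs matched). All replicate pairs differed by more than sampling noise (lowest chi-square 12.3 per degree of freedom). Named genes were the members, Sirpa, 2 genes per iron-related list with the smallest unadjusted p, and ferritin rows with a mean of at least 100; exceptions are stated. Members, lists and tests were chosen with earlier results of these data known. Depth governs counting error alone; the spread between libraries also enters each fit.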

Additional observations from a re-analysis of the deposited data

How the results depend on the processing

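No iron gene was called under any setting but array weights, which called 3 members higher and 11 of the 61 iron-related genes, in a fit that did not converge fully and called 3498 of 13527 genes. Under array weights the log2 fold change changed sign for Ftl1 (0.0376), Slc11a1 (0.0241), Slc11a2 (0.0291), Ncoa4 (0.0159) and Slc48a1 (0.0973). With equal library totals it changed sign for Slc11a2 (0.0181) and Ncoa4 (0.000853), and with quantile normalization for Slc11a2 (0.0241), where Fth1 was at 0. Quantile normalization gives genes of equal rank the same value in every library, and Fth1 ranked 2 or 3 in each. Its 0 therefore reflects rank and not a measured equality. The cause of the sign changes was not tested. Of 120 member values under settings that keep all libraries, 108 kept their direction and call. Changing the filter, the trend or the replicate block leaves the log2 fold change of a member as it was. The direction could therefore not change in those settings, and part of this count was fixed in advance. With single libraries left out, 0 members and 0 iron-related genes were called, and the median of the members ran from -0.0392 to 0.0994, the highest without KO replicate 3. The log2 fold change ran from -0.349 to 0.166 for Ftl1, -0.193 to 0.0591 for Slc11a1, -0.116 to 0.105 for Slc11a2, -0.0906 to 0.0302 for Ncoa4 and -0.134 to 0.108 for Slc48a1. The log2 ratio difference ran from -0.204 to 0.211 for Fth1 to Ftl1, -0.176 to 0.0523 for Slc40a1 to Tfrc, -0.0324 to 0.107 for Aco1 to Ireb2 and -0.134 to -0.0461 for Slc11a1 to Slc11a2.

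Whether the replicate numbers of the titles pair the libraries could not be decided from the values. Same-numbered libraries correlated in their deviations from the group means at 0.01, 0.31 and 0.13. Libraries of different number correlated at -0.26 to 0.15. KO replicates 1 and 2 correlated best with the WT library of their own number, and KO replicate 3 correlated best with WT replicate 1 (0.15). With the replicate block 0 members were called, the median stayed at -0.01, and 327 of all genes had an unadjusted p under 0.05, against 205 without it. Depth weighed most on Slc40a1, which had 414 reads or more in every library and a counting error above its spread between KO libraries and below that between WT libraries.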
